A study of Drosophila melanogaster with 12 samples.

Results

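Transcripts of 8 genes known from the fat body of Drosophila melanogaster were followed in poly(A) mRNA libraries of dissected ovaries. They are the storage protein genes Fbp1, Fbp2, Lsp1alpha, Lsp1beta, Lsp1gamma and Lsp2 and the lipoprotein genes apolpp and Apoltp. The genes were found by their FlyBase identifiers, and they are 8 of the 17023 identifiers in the count files. They were selected on their transcript levels in these same libraries, in knockdown against control ovaries, so those levels are described here without a test.

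The 10 libraries used fall into 5 sets of 2, and all were labelled as ovaries taken 1 to 3 days after eclosion. The labels give 3 sets as germline knockdowns (GKD): of SETDB1 (the H3K9 methyltransferase encoded by egg), of wde (a cofactor of SETDB1) or of Nup154 (a nuclear pore protein that the series uses as a control for the developmental defect). The other sets were both labelled as young controls, and they are told apart by titles that name either virgin flies or NGVP16. The title of virgin library 1 also names Dcr, which that of virgin library 2 does not, so the virgin libraries may differ in genotype and their mean is used with that limit. The driver and the hairpin line of the knockdowns, and the genotype of the controls beyond those words, are not stated in the labels. The titles of the NGVP16 and knockdown libraries share a running number that the virgin titles lack, so the NGVP16 pair served as the control of all 3 knockdowns, which are therefore not independent of one another. A pair labelled adult control was left out.

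The fat body is the organ of insects that stores fat and glycogen and secretes most proteins of the hemolymph. Late in larval life it secretes hexamerins, the large storage proteins built from the Lsp1 subunits and Lsp2, and takes them back up before metamorphosis. Larval fat cells survive as loose cells into the first days of adult life, beside the new adult fat body. The fat body also makes lipophorin, the particle that carries lipid through the hemolymph to the ovary and other tissues.

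Library depth ran from 7351948 counts in virgin library 2 to 20162235 counts in virgin library 1. All libraries held germline transcripts. The mRNA of osk, an oocyte-enriched gene of the pole plasm, was at 92.2 to 323 CPM (counts scaled to a common library size after TMM) in the 6 knockdown libraries, against 1759 to 2692 CPM in the 4 control libraries. The targeted genes gave a weak check of the labels. The level of egg was 31.8 and 37.8 CPM in SETDB1 GKD, against 34.3 and 70.8 CPM in NGVP16 (edgeR adjusted p = 0.206). That of wde was 74.4 and 92.9 CPM in wde GKD, against 43.1 and 143 CPM in NGVP16 (adjusted p = 0.81). Nup154 fell to 78.2 and 73.8 CPM in Nup154 GKD, against 144 and 224 CPM in NGVP16 (adjusted p = 0.0121). This fall was not particular to that set: Nup154 also fell in wde GKD (log2 fold change -1.02 ± 0.31, adjusted p = 0.0308), and in SETDB1 GKD its log2 fold change was -0.87 ± 0.30 (adjusted p = 0.0678). The sets are therefore called by their labels throughout.

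Fbp1 and Fbp2 were abundant in SETDB1 GKD, wde GKD and NGVP16 ovaries, low in virgin controls and close to 0 in Nup154 GKD. Fbp1 (FBgn0000639, minus strand of chromosome 3L, 14094589 to 14098053, dm6) encodes the receptor through which fat cells take hexamerins back up. It was at 230 and 68.5 CPM in SETDB1 GKD, 328 and 87 CPM in wde GKD, 0.444 and 0.347 CPM in Nup154 GKD, 2.7 and 4.69 CPM in virgin controls, and 69 and 95.9 CPM in NGVP16 controls. The SETDB1 and wde sets each had 1 library well above both NGVP16 libraries and 1 near them, while both Nup154 libraries lay far below all others. The 2 Nup154 values rest on 5 and 4 counts. Summed over the pair, the ratio to NGVP16 was 0.00462, with an exact 95% interval of 0.00211 to 0.00879 that covers counting error only. Because whole ovaries were sequenced, fewer cells of a type and less RNA per cell cannot be told apart for this gene or any other.

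Fbp2 (FBgn0000640, plus strand of 2L, 9426784 to 9427917) encodes a protein related to alcohol dehydrogenase. It was at 63.9 and 20.4 CPM in SETDB1 GKD, 114 and 29.8 CPM in wde GKD, 0.8 and 0 CPM in Nup154 GKD, 1.25 and 2.42 CPM in virgin controls, and 32 and 39.9 CPM in NGVP16 controls. As with Fbp1, the SETDB1 and wde sets overlapped NGVP16 and both Nup154 libraries lay below all others. The mean was 0.4 ± 0.565 CPM in Nup154 GKD, against 36 ± 5.58 CPM in NGVP16 (SD, n = 2 each). The 9 counts in the Nup154 pair gave a ratio to NGVP16 of 0.0107 (exact 95% interval 0.00488 to 0.0204). Fbp2 shares 48 exon bases with CG42847 on the same strand, a gene that had 0 to 23 counts in these libraries.

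**Figure D1:**
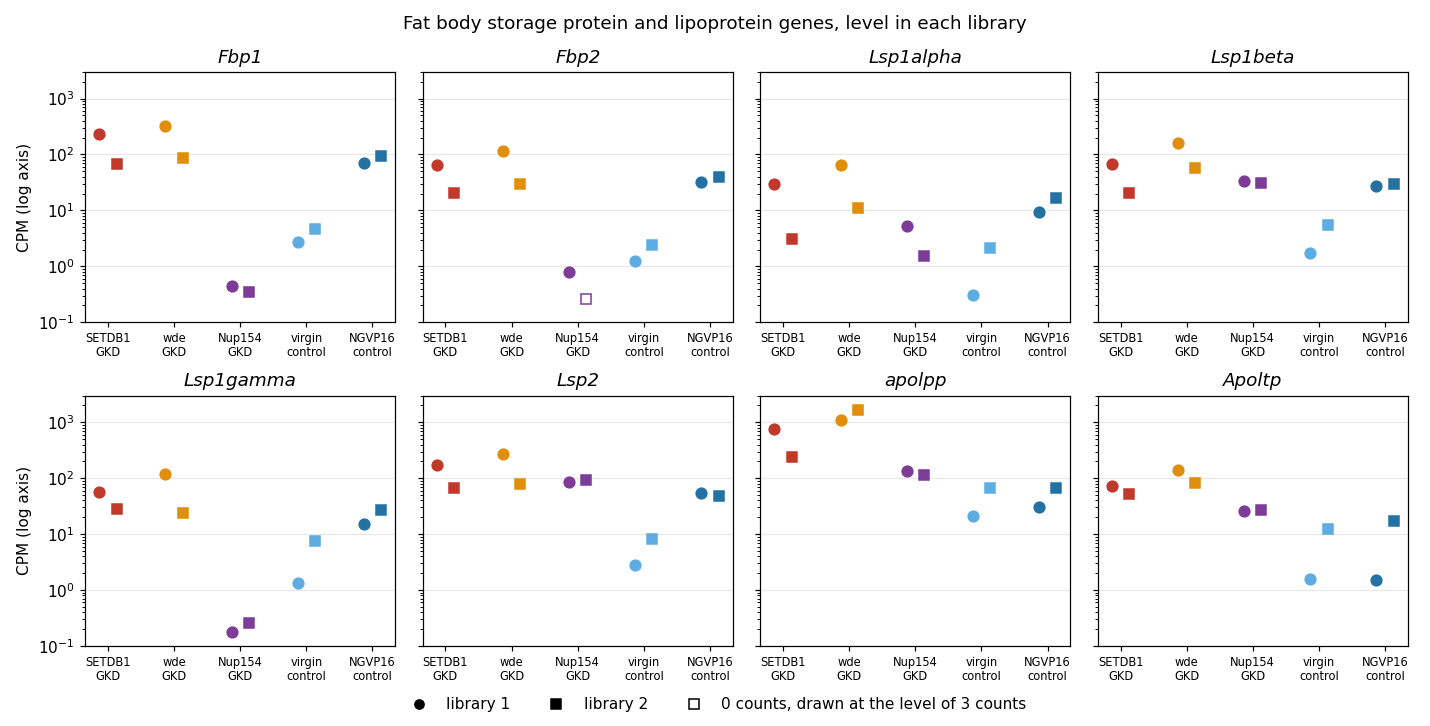
Level of each gene in CPM on a log axis, 1 panel per gene, with both libraries of each set as a circle and a square. Fbp1, Fbp2 and Lsp1gamma sit below 1 CPM in both Nup154 GKD libraries, while in CPM apolpp is above both NGVP16 libraries in all 6 knockdown libraries, an order that gene length correction ends for Nup154 GKD. The open square is Fbp2 in Nup154 GKD library 2, with 0 counts, drawn at the level of 3 counts.

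The 3 Lsp1 genes, which encode the subunits of larval serum protein 1, did not share 1 pattern. Lsp1gamma (FBgn0002564, plus strand of 3L, 66430 to 68995) went with Fbp1. It was at 56.4 and 27.8 CPM in SETDB1 GKD, 118 and 24 CPM in wde GKD, 0.178 and 0.26 CPM in Nup154 GKD, 1.35 and 7.39 CPM in virgin controls, and 15.1 and 26.7 CPM in NGVP16 controls. Both SETDB1 libraries were above both NGVP16 libraries, by as little as 1.04 times for the nearest pair, and the wde and NGVP16 libraries overlapped. The Nup154 pair held 5 counts, a ratio to NGVP16 of 0.00987 (exact 95% interval 0.00319 to 0.0232).

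Lsp1beta (FBgn0002563, plus strand of 2L, 898500 to 901316) was at a like level in the Nup154 and NGVP16 sets. It was at 68.2 and 20.8 CPM in SETDB1 GKD, 159 and 57.8 CPM in wde GKD, 33.2 and 31 CPM in Nup154 GKD, 1.71 and 5.4 CPM in virgin controls, and 27.3 and 29.6 CPM in NGVP16 controls. The mean over NGVP16 was 1.13 times in Nup154 GKD, with library-by-library ratios of 1.05 to 1.22. In wde GKD both libraries were higher than both NGVP16 libraries, with a mean ratio of 3.81 (1.95 to 5.83).

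Lsp1alpha (FBgn0002562, plus strand of X, 12490291 to 12492982) varied widely between the libraries of a set. It was at 29.3 and 3.06 CPM in SETDB1 GKD, 65 and 11.1 CPM in wde GKD, 5.24 and 1.56 CPM in Nup154 GKD, 0.311 and 2.13 CPM in virgin controls, and 9.53 and 16.7 CPM in NGVP16 controls. The libraries of SETDB1 GKD differed by 9.57 times and those of wde GKD by 5.85 times, and both sets overlapped NGVP16. The Nup154 libraries were lower than both NGVP16 libraries, with a mean ratio of 0.26 (0.0936 to 0.55), but they overlapped the virgin libraries. Reads that the 3 Lsp1 paralogs may share could not be examined, so how the counting split them is unknown.

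Lsp2 (FBgn0002565, plus strand of 3L, 12129393 to 12131869) encodes the other larval serum protein, which the adult fat body is known to make too. It was at 174 and 67.2 CPM in SETDB1 GKD, 269 and 77.2 CPM in wde GKD, 84.1 and 91.6 CPM in Nup154 GKD, 2.8 and 8.24 CPM in virgin controls, and 54.8 and 48.6 CPM in NGVP16 controls. All 6 knockdown libraries were above both NGVP16 libraries, with mean ratios of 2.33 for SETDB1 GKD (1.23 to 3.57), 3.35 for wde GKD (1.41 to 5.53) and 1.7 for Nup154 GKD (1.54 to 1.88). An annotated antisense gene, asRNA:CR11538, covers 84.6% of the exon bases of Lsp2. The library kit kept strand, but the strand setting of the counting is not known from the labels, so antisense reads may be included.

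In CPM, the lipoprotein genes were higher in every knockdown library than in both NGVP16 libraries, and for apolpp in Nup154 GKD this held only without a correction for gene length. The gene apolpp (FBgn0087002, plus strand of chromosome 4, 1060969 to 1077273) encodes the apolipoprotein of lipophorin. It was at 770 and 241 CPM in SETDB1 GKD, 1082 and 1678 CPM in wde GKD, 133 and 116 CPM in Nup154 GKD, 21.4 and 67.4 CPM in virgin controls, and 30.8 and 66.8 CPM in NGVP16 controls. The mean ratio to NGVP16 was 10.4 for SETDB1 GKD (3.61 to 25), 28.3 for wde GKD (16.2 to 54.6) and 2.55 for Nup154 GKD (1.73 to 4.31). The control sets overlapped, at 44.4 ± 32.5 CPM in virgin ovaries and 48.8 ± 25.5 CPM in NGVP16 ovaries (SD, n = 2 each). In wde GKD, apolpp ranked 651 among the 9889 tested genes with a known exon length, by level per kb of exon. Lsp2 ranked 1130 there and 2182 in Nup154 GKD, where Fbp1 ranked 9605 and Lsp1gamma 9649.

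Apoltp (FBgn0032136, plus strand of 2L, 9634179 to 9656026) encodes the apolipoprotein of the lipid transfer particle, which loads lipid onto lipophorin. It was at 71.5 and 51.2 CPM in SETDB1 GKD, 141 and 83.5 CPM in wde GKD, 25.7 and 26.7 CPM in Nup154 GKD, 1.56 and 12.4 CPM in virgin controls, and 1.52 and 17.3 CPM in NGVP16 controls. The knockdown libraries lay above all 4 control libraries. The NGVP16 libraries differed from each other by 11.3 times, so the mean ratios of 6.52 for SETDB1 GKD (2.96 to 46.9), 11.9 for wde GKD (4.82 to 92.7) and 2.78 for Nup154 GKD (1.48 to 17.5) are loosely set.

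Gene length bears on both lipoprotein genes, whose exons span 11.8 kb (apolpp) and 13.3 kb (Apoltp). Over the 190 tested genes with 10 to 15 kb of exon, the median of library 1 over library 2 was 0.361 in NGVP16 and 0.634 in virgin controls, against 1.02 to 1.14 in the knockdown sets. The median knockdown over NGVP16 ratio of those genes was 1.63 for SETDB1 GKD, 1.86 for wde GKD and 1.91 for Nup154 GKD. With a trend of level on gene length removed in each library, the ratio of apolpp to NGVP16 was 5.5 for SETDB1 GKD, 15 for wde GKD and 1.19 for Nup154 GKD, and that of Apoltp was 4.7, 8.06 and 1.7. After that step apolpp was at 93 and 80.8 in Nup154 GKD, against 82.3 and 64.1 in NGVP16, so these libraries overlapped. Both genes stayed above NGVP16 without overlap in SETDB1 GKD and wde GKD. So did Apoltp in Nup154 GKD, but narrowly, at 17.5 and 18.2 against 4.31 and 16.6 in NGVP16.

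**Figure D2:**
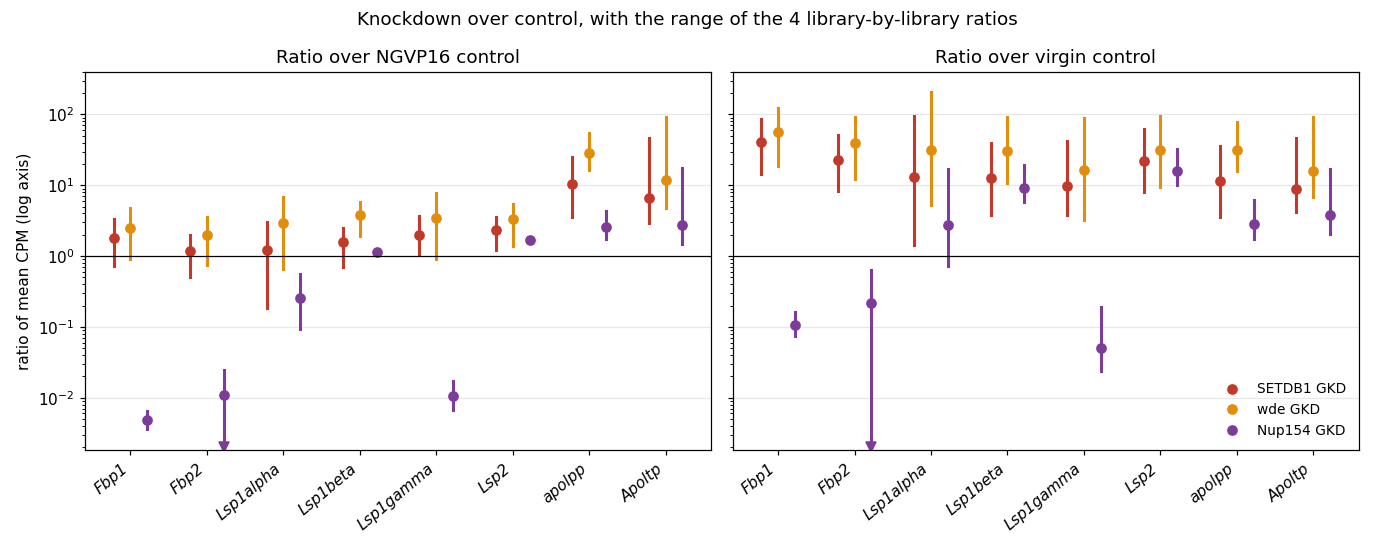
Ratio of mean CPM of each knockdown over NGVP16 (left) and over virgin controls (right), on log axes, with lines from the lowest to the highest of the 4 library-by-library ratios. Downward triangles mark a lowest ratio of 0. In the left panel, with no correction for gene length, apolpp and Apoltp lie above 1 over their whole range in all knockdowns (with it, apolpp overlaps NGVP16 in Nup154 GKD), and Fbp1, Fbp2 and Lsp1gamma lie below 0.1 in Nup154 GKD alone.

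Counted against NGVP16, SETDB1 GKD had 4 genes higher in both libraries than in both NGVP16 libraries (Lsp1gamma, Lsp2, apolpp and Apoltp), none lower and 4 overlapping. Over all 10105 tested genes, 33% were higher without overlap and 25% lower. In wde GKD, 4 genes were higher without overlap (Lsp1beta, Lsp2, apolpp and Apoltp), none lower and 4 overlapped, beside 38.8% of tested genes higher and 27.5% lower. In Nup154 GKD, 4 were higher (Lsp1beta, Lsp2, apolpp and Apoltp) and 4 lower (Fbp1, Fbp2, Lsp1alpha and Lsp1gamma), beside 39.3% higher and 28.7% lower. With the length trend removed, Nup154 GKD had 2 higher (Lsp2 and Apoltp) and 5 lower, as Lsp1beta turned lower and apolpp overlapped, and total-count scaling gave 3 higher and 4 lower, as Lsp1beta overlapped. Since the genes were chosen with these contrasts known, nothing is read from the counts.

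Virgin controls were lower than NGVP16 controls for all 6 storage protein genes and overlapped them for both lipoprotein genes, beside 20.2% of tested genes lower without overlap and 19.4% higher. The mean virgin over NGVP16 ratio was 0.0448 for Fbp1 (0.0281 to 0.068), 0.0509 for Fbp2 (0.0312 to 0.0755), 0.0933 for Lsp1alpha (0.0187 to 0.224), 0.107 for Lsp2 (0.0512 to 0.17), 0.125 for Lsp1beta (0.0578 to 0.198) and 0.209 for Lsp1gamma (0.0505 to 0.489). It was 0.91 for apolpp (0.321 to 2.19) and 0.739 for Apoltp (0.09 to 8.11). The choice of control thus sets the size of every storage gene's ratio. Against virgin controls, all 8 genes were higher without overlap in SETDB1 GKD (40.1% of tested genes were, and 35.8% were lower) and in wde GKD (42.4% and 38.2%). In Nup154 GKD 4 were higher (42.7%), 3 were lower (37.8%) and Lsp1alpha overlapped. The ratio of Lsp2 over virgin controls was 21.8 for SETDB1 GKD (8.15 to 62), 31.3 for wde GKD (9.36 to 95.9) and 15.9 for Nup154 GKD (10.2 to 32.7).

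Within a library the genes can be set against each other per kb of exon, which removes library scaling but not a trend on gene length. Fbp2 over Fbp1 was 0.899 and 0.958 in SETDB1 GKD, 1.12 and 1.11 in wde GKD, 1.49 and 1.66 in virgin controls, and 1.5 and 1.34 in NGVP16 controls. These genes thus kept between 0.899 and 1.66 in the 8 libraries outside Nup154 GKD, where the ratio of 5.81 and 0 rests on under 10 counts per gene and library. Fbp1 over Lsp2 was 0.944 and 0.729 in SETDB1 GKD, 0.873 and 0.806 in wde GKD, 0.688 and 0.407 in virgin controls, and 0.901 and 1.41 in NGVP16 controls. In Nup154 GKD it was 0.00377 and 0.00271, far outside the range of the other 8 libraries.

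Lsp1gamma parted from Lsp1beta in the same way, while Lsp1alpha did not do so clearly. Lsp1alpha over Lsp1beta was 0.165 and 0.0527 in Nup154 GKD, which overlapped the 0.449 and 0.154 of SETDB1 GKD. Lsp1gamma over Lsp1beta was 0.908 and 1.47 in SETDB1 GKD, 0.817 and 0.457 in wde GKD, only 0.00588 and 0.00921 in Nup154 GKD, 0.866 and 1.5 in virgin controls, and 0.608 and 0.992 in NGVP16 controls. Lsp1beta over Lsp2 stayed between 0.279 and 0.675 in all 10 libraries, with 0.356 and 0.305 in Nup154 GKD and 0.449 and 0.549 in NGVP16. Of the summed level per kb of the 6 storage genes, Lsp2 made up 69.3% and 75.4% in Nup154 GKD, against 24.2% and 17.5% in NGVP16, and Lsp1beta made up 24.7% and 23% in Nup154 GKD, against 10.9% and 9.6% in NGVP16. Fbp1 made up 0.262% and 0.204% in Nup154 GKD, against 21.8% and 24.7% in NGVP16. The Nup154 set was thus set apart by which storage genes it held, while the virgin set was low in all of them.

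The lipoprotein apolpp did not keep to the storage genes. Its level over that of Lsp2 was 0.933 and 0.755 in SETDB1 GKD, 0.847 and 4.58 in wde GKD, a lower 0.332 and 0.266 in Nup154 GKD, 1.61 and 1.72 in virgin controls, and 0.118 and 0.289 in NGVP16 controls. Without a correction for gene length, the NGVP16 libraries thus held the least apolpp per Lsp2 but for an overlap with Nup154 GKD. By the same ratio, wde library 2 held the most. With the length trend removed, apolpp was at 82.3 and 64.1 and Lsp2 at 65.3 and 51.7 in NGVP16. In Nup154 GKD, apolpp was then at 93 and 80.8 and Lsp2 at 79 and 86.2, so the order of these sets did not hold. Against Apoltp, apolpp was 4.37 to 22.8 times as abundant per kb in the 10 libraries, and NGVP16 libraries alone ran from 4.37 to 22.8.

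**Figure D3:**
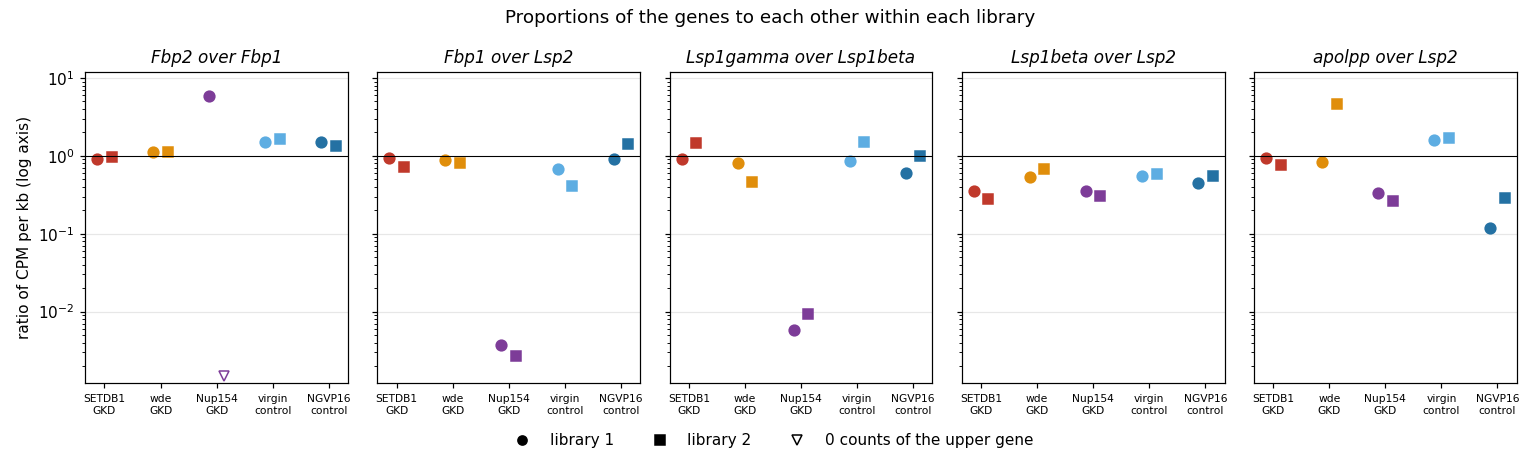
Ratios of CPM per kb of exon between pairs of genes within each library, on log axes, with circles for library 1 and squares for library 2. Fbp1 over Lsp2 and Lsp1gamma over Lsp1beta are below 0.01 in both Nup154 GKD libraries and between 0.4 and 1.5 in the other libraries, while Lsp1beta over Lsp2 is alike in all. The triangle marks Fbp2 over Fbp1 with 0 counts of Fbp2.

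By mean level per kb of exon, the storage genes of NGVP16 ovaries were ordered as Fbp2 at 33.5 ± 5.2 CPM per kb, Fbp1 at 23.8 ± 5.5, Lsp2 at 20.9 ± 1.76, Lsp1beta at 10.4 ± 0.59, Lsp1gamma at 8.37 ± 3.28 and Lsp1alpha at 4.99 ± 1.92 (SD, n = 2). The lipoproteins followed, with apolpp at 4.15 ± 2.17 and Apoltp at 0.706 ± 0.837. Libraries overlapped between Fbp1 and Lsp2, between Lsp1beta and Lsp1gamma, between Lsp1gamma and Lsp1alpha, and between Lsp1alpha and apolpp. All orders in this paragraph are without a correction for the trend on gene length, which can change them. With the trend removed, NGVP16 library 1 had Fbp2 at 25.3, against 32 CPM without that step. Fbp1 was then at 100, against 69 CPM, and apolpp at 82.3, against 30.8 CPM. In Nup154 GKD, Lsp2 led at 35.5 ± 2.14 CPM per kb. It was followed by Lsp1beta at 11.7 ± 0.565 and apolpp at 10.6 ± 1.02, which overlapped each other. Apoltp at 1.96 ± 0.0541 and Lsp1alpha at 1.3 ± 0.992 came next, and Fbp2, Fbp1 and Lsp1gamma were last, at 0.372 ± 0.526, 0.114 ± 0.0199 and 0.0875 ± 0.0233. In wde GKD, apolpp led at 117 ± 35.9 CPM per kb, ahead of Lsp2 at 69.8 ± 54.7, Fbp2 at 66.9 ± 55.3 and Fbp1 at 59.9 ± 49.2, none of which could be ordered within that spread. In SETDB1 GKD, Lsp2 at 48.6 ± 30.4, Fbp1 at 43 ± 32.9, apolpp at 43 ± 31.8 and Fbp2 at 39.2 ± 28.7 were likewise not told apart. In virgin controls the means of all 8 genes lay between 0.465 CPM per kb for Lsp1alpha and 3.77 CPM per kb for apolpp.

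In SETDB1 GKD, wde GKD and virgin controls, the libraries of a set differed more in these genes than in most others. The other sets were mixed. In NGVP16 the difference exceeded that of 11.4% of tested genes for Lsp1beta and of 99.2% for Apoltp. In Nup154 GKD it exceeded that of 21.6% for Apoltp and of 99% for Lsp1alpha. SETDB1 library 1 was above library 2 for all 8 genes, by 1.39 to 9.57 times, and for Fbp1 the difference between them was larger than for 95% of tested genes. In wde GKD, library 1 was above library 2 for all genes but apolpp, by 1.69 to 5.85 times, and apolpp was 0.644 times as high. Virgin library 2 was above library 1 for all 8 genes, by 1.74 to 7.94 times. The Nup154 libraries differed by at most 1.15 times for Lsp1beta, Lsp2, apolpp and Apoltp. Summed, the 8 genes took 0.155% of counts (Wilson 95% interval 0.153 to 0.157) in SETDB1 library 1 and 0.0526% (0.0512 to 0.0541) in library 2. They took 0.23% and 0.201% in wde GKD, a smaller 0.0276% and 0.0261% in Nup154 GKD, 0.00316% and 0.0105% in virgin controls, and 0.0232% and 0.0366% in NGVP16 controls.

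Several means rest on 1 library. Without SETDB1 library 1, the log2 ratio of SETDB1 GKD over NGVP16 changed sign for Fbp1 (-0.27, against 0.85 with it), Fbp2 (-0.82, against 0.23), Lsp1alpha (-2.10, against 0.30) and Lsp1beta (-0.45, against 0.65). Lsp1alpha also changed sign without NGVP16 library 1 (-0.04). Without wde library 1, the log2 ratio of wde GKD over NGVP16 changed sign for Fbp2 (-0.27, against 1.00) and Lsp1alpha (-0.24, against 1.54). In virgin over NGVP16, the log2 ratio of apolpp was 0.47 without virgin library 1 and 0.53 without NGVP16 library 2, where all libraries gave -0.14. That of Apoltp was 0.39 and 2.19, where all libraries gave -0.44. Without NGVP16 library 2, the log2 ratio of Apoltp over NGVP16 was 5.33 for SETDB1 GKD, 6.20 for wde GKD and 4.10 for Nup154 GKD, where all libraries gave 2.70, 3.58 and 1.48. With the length trend removed, the log2 ratio of Lsp1beta in Nup154 GKD was -0.14, against 0.17 without that step.

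The genes whose log2 level most resembled each of the 8 over the 10 libraries included other members and genes of metabolism and defence. Fbp1 and Fbp2 were each other's closest match (Pearson r = 0.993), followed by Lsp1gamma (r = 0.976 with Fbp1). BomS6, a short peptide of the immune response, came next for Fbp1 (r = 0.941), and was at 0.267 and 0.693 CPM in Nup154 GKD, against 46.9 and 23.6 CPM in NGVP16. Obp99b, of the odorant-binding protein family, was the third for Fbp2 (r = 0.941) and the closest for Lsp1alpha (r = 0.945). It was at 2.13 and 1.91 CPM in Nup154 GKD, against 14.7 and 23.7 CPM in NGVP16. Lsp1alpha was followed by Dso1, an immune-induced peptide (r = 0.878), and SPH93, a serine protease homolog (r = 0.872). Obp99c was the third for Lsp1gamma (r = 0.949). These values describe 10 points that share 5 sets.

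Lsp1beta was closest to P5CS, an enzyme of proline synthesis (r = 0.974), then to Lsp2 (r = 0.971) and to Tps1, the trehalose synthesis enzyme (r = 0.96). P5CS was at 47.2 and 48.3 CPM in Nup154 GKD and 3.58 and 5.97 CPM in virgin controls, against 50.2 and 51.7 CPM in NGVP16. Lsp2 was further matched by P5CS (r = 0.945) and the lipocalin GLaz (r = 0.939). For apolpp the closest genes were Vha16-1, a proton pump subunit (r = 0.962), the channel gene wtrw (r = 0.943) and Cyt-b5-r (r = 0.941). For Apoltp they were the dioxygenase gene Tet (r = 0.978), the protein kinase A gene Pka-C1 (r = 0.977) and the sulfatase gene Sulf1 (r = 0.971). The summed level of the 8 genes was closest to Est-Q, an esterase (r = 0.973).

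Other genes of the fat body and of lipid handling, which are not among the 8, were tested with edgeR over all 10105 genes. Their lists were also drawn up with earlier results of these data known, so the counts describe those lists only. Of 29 tested fat body genes, 6 rose and 2 fell in SETDB1 GKD against NGVP16, with a median log2 fold change of 0.48, where 14.6% of all tested genes rose and 9.51% fell with a median of 0.11. In wde GKD 20 rose and none fell (median 2.15), where 21.3% rose and 14.2% fell (median 0.15). In Nup154 GKD 12 rose and 2 fell (median 1.38), where 20.8% rose and 16.1% fell (median 0.12). Removing a trend on gene length turned the overall calls to 1661 higher and 1977 lower in SETDB1 GKD, against 1477 and 961 without that step. They became 2203 and 2562 in wde GKD, against 2150 and 1438, and 2068 and 2563 in Nup154 GKD, against 2104 and 1631.

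Treh, the enzyme that splits trehalose, rose in all 3 knockdowns, to 425 and 223 CPM in SETDB1 GKD, 584 and 651 CPM in wde GKD and 1158 and 1148 CPM in Nup154 GKD, against 84.5 and 132 CPM in NGVP16. Its log2 fold changes were 1.58 ± 0.36, 2.51 ± 0.37 and 3.41 ± 0.39 (± SE, adjusted p = 0.0147, 0.00176 and 0.000437). The other 3 most abundant genes of the list did not pass the test in any knockdown. In SETDB1 GKD, Desat1, a fatty acid desaturase, had a log2 fold change of -0.03 ± 0.27, the lipid droplet gene Lsd-2 one of -0.76 ± 0.33 and the glycogen phosphorylase Glyp one of -0.58 ± 0.41.

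A few further genes are given that were chosen after their values were seen. Tps1 was at 931 and 840 CPM in wde GKD, against 93.4 and 77.9 CPM in NGVP16 (log2 fold change 3.37 ± 0.65, adjusted p = 0.00512). The lipocalin NLaz, at 49 and 52.8 CPM in SETDB1 GKD, 61.5 and 67.1 CPM in wde GKD and 128 and 119 CPM in Nup154 GKD, against 19.3 and 9.42 CPM in NGVP16, rose in each. It and Lsd-1, which coats lipid droplets, were the 2 fat body genes that fell in virgin controls, where none rose and where 1.29% of all tested genes fell and 0.356% rose. NLaz was at 3.37 and 3.27 CPM there (log2 fold change -2.1 ± 0.34, adjusted p = 0.0264). Lsd-1 was at 4.1 and 8.81 CPM there, against 24 and 23.8 CPM in NGVP16 (log2 fold change -1.92 ± 0.35, adjusted p = 0.0354). The secreted insulin antagonist ImpL2 and Mtp, which loads lipid onto apolipoproteins, were the 2 that fell with SETDB1 GKD, and both fell with Nup154 GKD as well.

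Mtp, which acts on the product of apolpp, was lower than in NGVP16 in all 6 knockdown libraries, where apolpp was higher in CPM. It was at 28.4 and 25.7 CPM in SETDB1 GKD, 51.4 and 46.6 CPM in wde GKD and 35.8 and 36.3 CPM in Nup154 GKD, against 63.3 and 64.1 CPM in NGVP16. Its log2 fold change was -1.23 ± 0.21 in SETDB1 GKD (adjusted p = 0.0043) and -0.82 ± 0.21 in Nup154 GKD (adjusted p = 0.0152), and it did not pass the test in wde GKD. Of the 24 tested genes of lipid uptake and storage, 1 rose and 2 fell in SETDB1 GKD (median log2 fold change 0.02), 7 rose and 1 fell in wde GKD (median 0.62), while Nup154 GKD had 10 that rose and 3 that fell (median 1.13). The shares over all tested genes were those given for the fat body list. With the length trend removed, 3 rose and 8 fell in SETDB1 GKD (median -0.31), 7 rose and 3 fell in wde GKD (median 0.14), while Nup154 GKD had 9 that rose and 4 that fell (median 0.41). The most abundant was yl, the yolk protein receptor of the oocyte, which fell to 94.5 and 72.9 CPM in SETDB1 GKD, 75 and 201 CPM in wde GKD and 271 and 264 CPM in Nup154 GKD, against 1315 and 2530 CPM in NGVP16. Its log2 fold changes were -4.52 ± 0.57, -3.80 ± 0.55 and -2.85 ± 0.53 (adjusted p = 0.00115, 0.00158 and 0.0038).

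The other 3 most abundant genes of that list, fabp (a fatty acid binding protein), Lsd-2 and ATPCL (an enzyme that makes acetyl-CoA for lipid synthesis), did not pass the test in any knockdown. The lipophorin receptors LpR1 and LpR2 are given by a choice made after their values were seen. LpR1 rose to 84.1 and 72.6 CPM in Nup154 GKD, against 27.6 and 39.3 CPM in NGVP16 (log2 fold change 1.23 ± 0.29, adjusted p = 0.0117). In virgin controls LpR1 was at 47.9 and 74.5 CPM, which overlapped Nup154 GKD. Its exons span 6.64 kb, and these values are without a correction for gene length. LpR2 was at 152 and 154 CPM in Nup154 GKD, against 139 and 396 CPM in NGVP16, where the NGVP16 libraries bracket both. The gene mgl, of a receptor in the LDL receptor family, was the only gene of the list to rise in SETDB1 GKD, at 290 and 179 CPM, against 30 and 101 CPM in NGVP16 (log2 fold change 1.84 ± 0.57, adjusted p = 0.0455). The exons of mgl span 17.7 kb, so the trend on gene length bears on it too. Under total-count scaling the list had 0 genes higher in SETDB1 GKD, while DESeq2 gave 5.

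The counts of these lists depended on single libraries. The fat body count in SETDB1 GKD was 3 higher and 2 lower without SETDB1 library 1, and in wde GKD it was 11 higher and 0 lower without NGVP16 library 1. The lipid count in SETDB1 GKD was 0 higher and 6 lower without NGVP16 library 1, and 4 higher and 3 lower without NGVP16 library 2. In wde GKD it was 13 and 2 without NGVP16 library 2, and in virgin against NGVP16 it was 9 and 2, where the full set gave 0 and 1.

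Phenoloxidases belong to the same protein superfamily as the hexamerins, but PPO2 is made by crystal cells of the blood. PPO2 rose to 23.7 and 9.08 CPM in SETDB1 GKD, 59.5 and 77.5 CPM in wde GKD and 122 and 115 CPM in Nup154 GKD, against 2.8 and 1.05 CPM in NGVP16. Its log2 fold changes were 3.15 ± 0.59, 5.20 ± 0.63 and 6.00 ± 0.65 (adjusted p = 0.00667, 0.000748 and 0.000365). PPO2 was thus highest in Nup154 GKD. PPO3 did not pass the test in any knockdown.

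Ecdysone, the steroid hormone of metamorphosis, is known to regulate several larval storage genes. Of 12 tested ecdysone response genes, 2 rose and 1 fell in SETDB1 GKD, 3 rose in wde GKD, while Nup154 GKD had 2 that rose and 1 that fell. The nuclear receptor gene Eip75B rose to 307 and 294 CPM in SETDB1 GKD, 214 and 286 CPM in wde GKD and 409 and 432 CPM in Nup154 GKD, against 35.3 and 110 CPM in NGVP16 (log2 fold changes 2.05 ± 0.49, 1.78 ± 0.49 and 2.53 ± 0.50, adjusted p = 0.0179, 0.0218 and 0.00503). Eip93F, a transcription factor gene, rose by 2.65 ± 0.59, 2.53 ± 0.59 and 2.10 ± 0.58 (adjusted p = 0.0137, 0.0119 and 0.0217). The receptor gene EcR and ftz-f1 did not pass the test in any knockdown. These counts stand beside the shares over all tested genes, 14.6% higher and 9.51% lower in SETDB1 GKD, 21.3% and 14.2% in wde GKD, and 20.8% and 16.1% in Nup154 GKD. Without NGVP16 library 2, 6 genes of the list rose in each knockdown. With the length trend removed, 2 rose and 5 fell in SETDB1 GKD, 2 rose and 3 fell in wde GKD, while Nup154 GKD had 2 that rose and 4 that fell.

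Markers of larval tissues other than fat were at or near 0. The 16 listed genes of salivary gland glue, larval cuticle and prepupal salivary gland summed to 0.156 to 6.59 CPM per library, and none passed the filter on low counts. Sgs5, Eig71Ea, Eig71Eb, Eig71Ed, ng1, ng2 and ng3 had 0 counts in all 10 libraries. The sums were 2.84 and 6.59 CPM in Nup154 GKD, against 0.508 and 0.885 CPM in NGVP16.

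How many markers of the muscle sheath and of other tissues passed the test differed by list. Over all tested genes, 14.6% rose and 9.51% fell in SETDB1 GKD, 21.3% and 14.2% in wde GKD, and 20.8% and 16.1% in Nup154 GKD. All 11 muscle markers rose in each knockdown, and their sum was 20922 to 24675 CPM in the knockdown libraries, against 3150 and 3523 CPM in NGVP16. Of 10 tested hemocyte markers, 9 rose in SETDB1 GKD and 10 in both wde GKD and Nup154 GKD. Their sum was 4117 and 3554 CPM in SETDB1 GKD, 6413 and 4687 CPM in wde GKD and 6878 and 6502 CPM in Nup154 GKD, against 309 and 750 CPM in NGVP16. The hemocyte sum, which includes PPO2, was thus highest in Nup154 GKD, with wde library 1 close to it. Of 7 germline genes, 4 fell in SETDB1 GKD and 5 in each of wde GKD and Nup154 GKD. Of 6 reproductive tract genes, 2 rose in SETDB1 GKD and 5 in each of wde GKD and Nup154 GKD. Of 7 follicle cell genes, 1 rose and 3 fell in SETDB1 GKD, 2 rose in wde GKD, while Nup154 GKD had 1 of each.

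Gut and immune effector sums were higher in library 1 than in library 2 of SETDB1 GKD and wde GKD, as were the storage genes. In NGVP16 the immune sum ran the other way from the 6 storage genes, which summed to 208 and 257 CPM there. Gut markers summed to 1655 and 2.29 CPM in SETDB1 GKD, 397 and 48.4 CPM in wde GKD, 51.9 and 56.3 CPM in Nup154 GKD, 4.88 and 10.1 CPM in virgin controls, and 0.508 and 104 CPM in NGVP16 controls. Immune effector genes, many of them made in the fat body, summed to 256 and 94.2 CPM in SETDB1 GKD, 1777 and 330 CPM in wde GKD, 646 and 680 CPM in Nup154 GKD, 22.4 and 195 CPM in virgin controls, and 187 and 107 CPM in NGVP16 controls. In SETDB1, wde and Nup154 GKD, 14.6%, 21.3% and 20.8% of all tested genes rose and 9.51%, 14.2% and 16.1% fell. Of 19 tested immune genes, none passed in SETDB1 GKD, 4 rose in wde GKD, while Nup154 GKD had 3 that rose and 1 that fell. Of the most abundant, Bbd rose in wde GKD and Nup154 GKD (log2 fold changes 2.58 ± 0.48 and 2.65 ± 0.48, adjusted p = 0.00462 and 0.00358), while AttC, DptA and AttB did not pass in any knockdown.

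Oenocytes, which lie near the fat body and make cuticle lipids, were followed by 5 tested markers. None passed in SETDB1 GKD, 4 rose in wde GKD and 1 with Nup154 GKD, beside the shares of all tested genes given for the immune genes. The 5 markers summed to 424 and 404 CPM in SETDB1 GKD, 1705 and 858 CPM in wde GKD and 507 and 503 CPM in Nup154 GKD, against 186 and 361 CPM in NGVP16. Without wde library 1, none rose in wde GKD. The other fat body genes summed to 3512 and 2577 CPM in SETDB1 GKD, 6838 and 5798 CPM in wde GKD, 5492 and 5514 CPM in Nup154 GKD, 2587 and 2875 CPM in virgin controls, and 2264 and 2414 CPM in NGVP16 controls. The part of any of these tissues in the levels of the storage protein and lipoprotein genes was not tested.

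**Figure D4:**
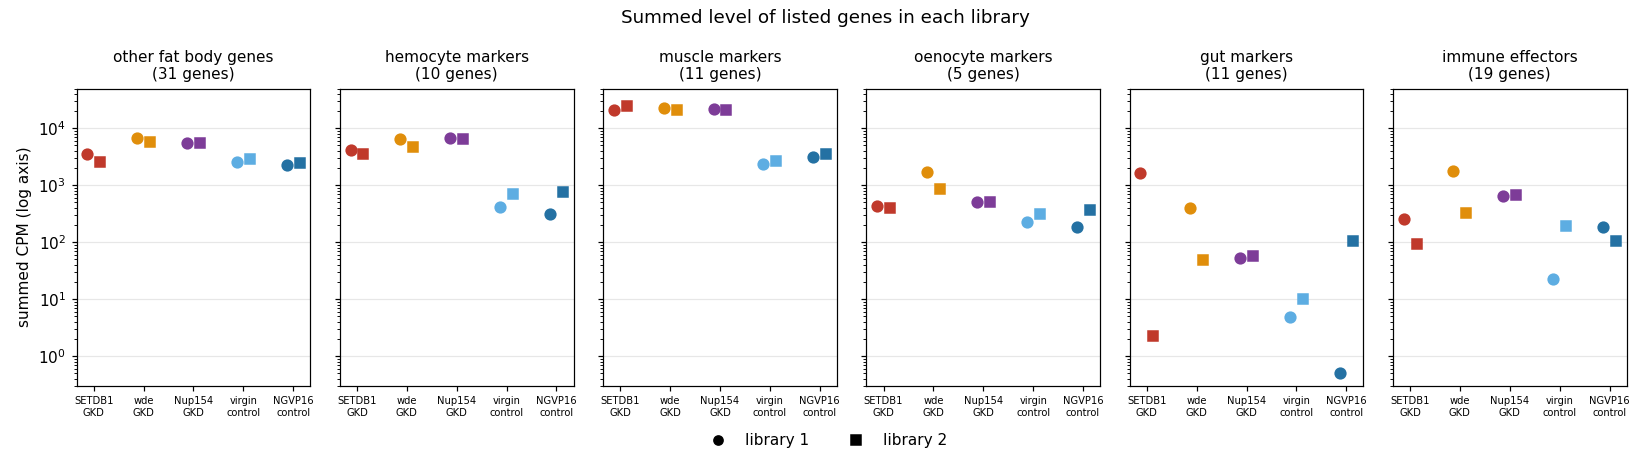
Summed CPM of listed genes in each library, on a log axis, for other fat body genes, hemocyte, muscle, oenocyte and gut markers and immune effectors. Muscle and hemocyte sums are higher in all 6 knockdown libraries than in the 4 control libraries, while gut markers range from 2.29 to 1655 CPM within SETDB1 GKD alone.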

How the data were processed

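The deposited files hold whole-number counts per FlyBase gene, 1 file per library, without normalization. Per the submitters' processing notes, HISAT2 2.1.0, featureCounts 1.4.6 and DESeq2 1.24.0 were used with build dm6. What each tool did, and with which annotation and strand setting, is not stated there. RNA was isolated by TRIzol or phenol-chloroform, DNase-treated, selected for poly(A) and made into directional libraries, per the labels' protocols. Symbols and coordinates came from the Ensembl 115 annotation, which uses dm6 coordinates and named 16647 of 17023 identifiers. The other 376 held 5.95% to 6.94% of counts and stayed in library sizes and tests.

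From the 10 libraries, filterByExpr kept 10105 genes, including all 8 described. Libraries were scaled by TMM, and edgeR 4.0.16 (quasi-likelihood, robust, 1 mean per set, 5 residual degrees of freedom, R 4.3.3) gave adjusted p-values by Benjamini-Hochberg over all genes, at a threshold of 0.05. SE is the absolute log2 fold change over the square root of F. The 8 genes have no p-values: their levels are CPM with SD over n = 2, and ratios are of set means. The labels do not say whether libraries of a set came from separate flies, so p-values reflect the spread among these libraries alone, which may be technical. Intervals cover counting error only.

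The 8 genes and the other gene lists were chosen with earlier results of these data known. From each list the 4 genes with the highest mean CPM among tested genes were named. As most like each gene, the 3 named genes with the highest Pearson r of log2(CPM + 1) were taken among those with at least 10 CPM on average. Symbols that matched no identifier were left out of the lists. Alternatives were DESeq2 1.42.0, no filter, RLE or total-count scaling, a length trend removed, all 12 libraries, the virgin pair as control, a replicate block and each library left out.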

Additional observations from a re-analysis of the deposited data

How the results depend on the processing

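With 1 library left out at a time, the number of genes past the test ran from 1024 to 4289 in SETDB1 GKD (2438 with all), from 1521 to 4928 in wde GKD (3588), from 1769 to 5072 in Nup154 GKD (3735) and from 9 to 2514 in virgin against NGVP16 (166). All 3 highest knockdown counts came without NGVP16 library 2. A set left with 1 library is assumed to vary like the others. The virgin count was 894 with DESeq2, 254 with no filter on low counts and 469 with the length trend removed. The virgin comparison also shifted as a whole: over all genes, its median log2 fold change was -0.17 under RLE scaling, against -0.05 under TMM. Set against virgin controls, 8 of the 8 genes did not overlap in SETDB1 GKD and 8 in wde GKD, against 4 each with NGVP16, a count added after seeing the data. Against virgin controls Lsp1alpha in Nup154 GKD turned to a log2 ratio of 1.48, against -1.95. Removing the length trend moved the log2 ratio over NGVP16 by more than the spread for apolpp (3.91 in wde GKD, against 4.82, and 0.25 in Nup154 GKD, against 1.35), Fbp1 (-8.13 in Nup154 GKD, against -7.70), Lsp1beta and Lsp2 (0.50 in Nup154 GKD, against 0.77).

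Replicate numbers are shared by the knockdown and NGVP16 titles, but nothing says that they pair libraries, and replicate differences correlated with those of NGVP16 at -0.168 for SETDB1 GKD, -0.179 for wde GKD and 0.0159 for Nup154 GKD. A replicate block gave 1651, 2904 and 3138 genes, against 2234, 3467 and 3621 in the same 8 libraries without it. The block with NGVP16 numbers crossed, added after seeing the data, gave 2106 in SETDB1 GKD and 3236 in wde GKD. Depth limits Fbp1, Fbp2 and Lsp1gamma in Nup154 GKD, where 5 to 9 counts per gene set the ratios. Some control values are limited as well: Apoltp in NGVP16 library 1 rests on 12 counts, and Lsp1alpha in virgin controls on 6 and 15.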

Other observations

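The pair labelled adult control was shallow, with 471770 and 682565 counts, and entered no comparison. It held 7 and 8 counts of the 8 genes together, or 14.8 and 11.7 CPM of the total count. Fbp1, Fbp2 and Lsp1alpha had 0 counts in both libraries, which at a floor of 3 counts allows up to 6.36 and 4.4 CPM for each.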
